A study of Mus musculus with 15 samples.

Results

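The neuropeptide genes Npy, Cort, Sst, Adcyap1, Vip, Tac1, Cck, Penk, Crh and Pdyn were followed in mouse primary cortical neurons exposed to kainate, an agonist of AMPA and kainate glutamate receptors. Every probe whose gene symbol in the platform annotation was one of these names was taken. That gave 11 of the 24607 probes with values, for 10 of the 15923 named genes, with 1 probe per gene except Cort, which had 2. Of these, 9 probes of 8 genes were detected on enough arrays to be tested (detection p below 0.05 on at least 3 of 15 arrays). The Vip and Crh probes were detected on 0 of 15 arrays and were not tested.

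The neurons came from Swiss Albino mouse foetuses at gestation day 15 to 16 and had been in culture for 5 days. The 6 control arrays carried neurons given vehicle, with a treatment time of 0 h, and 3 arrays each carried neurons given 100 µM kainate for 5 h, 15 h or 24 h. The control titles name AMPA as well as kainate, so that these arrays also served a second agonist's experiment that was not analysed here. The labels do not say whether replicates were separate cultures, and p-values therefore measure only the spread between these arrays. A beadchip held 2 controls and 1 array from each of the kainate times, and 3 such chips made up the 15 arrays. Hours in culture and the position on the chip cannot be told apart from the treatment.

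Neuropeptides are cut from larger precursor proteins, stored in dense-core vesicles and released during strong or repeated firing, after which they act on G-protein-coupled receptors. In the cortex, somatostatin, cortistatin, neuropeptide Y and vasoactive intestinal peptide mark classes of GABA-releasing interneurons, while cholecystokinin is made by interneurons and pyramidal cells. Several of these genes are known targets of calcium and cAMP signalling through the factor CREB, which binds the cAMP response element, and the somatostatin promoter is a textbook case. Neuropeptide Y and somatostatin are known to dampen glutamate release, and PACAP, the product of Adcyap1, is known for protecting neurons.

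The 100 bases before the annotated start are shown for the gene with the complete cAMP response element and for the 3 genes whose signals moved most. Sequences are RefSeq's on GRCm38.p6, read 5′ to 3′ on the gene's own strand. Capitals mark TGACGTCA, the complete element, or its half-site TGACG, which reads CGTCA where it lies on the opposite strand.
Sst promoter, chr16:23890845-23890944, minus strand: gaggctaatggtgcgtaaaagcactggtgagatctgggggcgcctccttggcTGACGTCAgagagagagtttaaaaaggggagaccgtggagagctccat
Npy promoter, chr6:49822610-49822709, plus strand: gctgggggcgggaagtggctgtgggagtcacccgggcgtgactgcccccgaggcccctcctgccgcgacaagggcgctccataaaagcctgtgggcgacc
Cort promoter, chr4:149126764-149126863, minus strand: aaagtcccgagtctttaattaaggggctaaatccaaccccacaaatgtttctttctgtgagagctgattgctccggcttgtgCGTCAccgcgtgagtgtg
Adcyap1 promoter, chr17:93198917-93199016, plus strand: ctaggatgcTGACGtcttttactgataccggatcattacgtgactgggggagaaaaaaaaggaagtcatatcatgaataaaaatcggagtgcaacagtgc

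Promoters running from 250 bases before to 50 after the start were found for 8 of the 10 genes, at 10 starts, since Adcyap1 and Pdyn have 2 each. Both strands were searched. The complete element occurred in 1 of the 8 genes, Sst, 48 bases before the start, and in 1.79% of all 32851 promoters. The half-site, which the complete element contains on each strand, occurred in 6 of the 8 genes (Cort, Sst, Adcyap1, Vip, Tac1 and Cck) and in 20.8% of all promoters. It lay 18 bases before the start in Cort. In Adcyap1 it lay 91 bases before the first of the 2 starts used, whose stretch is shown. It lay 242 bases before the second, whose own last 100 bases hold no half-site. The starts used for Adcyap1 and Sst lie inside the gene spans given below, and the bases before the outer ends of those spans were not searched. Npy and Pdyn held neither motif, and none of the 8 genes held the AP-1 site TGANTCA, which 7.81% of all promoters hold. A missing match says only that these letters are not in this window.

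Against the controls, 4 of the 9 probes changed at 5 h (1 higher, 3 lower), beside 38.7% of all 14154 probes tested (17.9% higher, 20.8% lower). At 15 h 5 changed (1 higher, 4 lower), beside 45.3% (21.8% higher, 23.5% lower), and at 24 h 5 changed (2 higher, 3 lower), beside 43.0% (21.1% higher, 21.9% lower). Between kainate times, 3 changed from 5 h to 15 h (1 higher, 2 lower), beside 33.0% of all probes (17.0% higher, 16.0% lower). From 15 h to 24 h 2 changed (1 higher, 1 lower), beside 0.608% (0.212% higher, 0.396% lower), and from 5 h to 24 h 4 changed (3 higher, 1 lower), beside 35.6% (18.6% higher, 17.0% lower). A moderated F test for a change at any time called 6 of the 9, beside 61.2% of all probes. Against the controls, the members' shares were near those of all probes. Calls are limma's moderated test with Benjamini-Hochberg adjusted p below 0.05 over all probes. Errors of log2 differences are the moderated standard errors of that fit, whose spread was estimated from all 15 arrays together. A difference from control sets 3 kainate arrays against 6 controls, and a difference between kainate times sets 3 arrays against 3. Without control replicates 1 and 3, which stood apart from the other 4 controls, the counts were 4, 6 and 6.

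**Figure D1:**
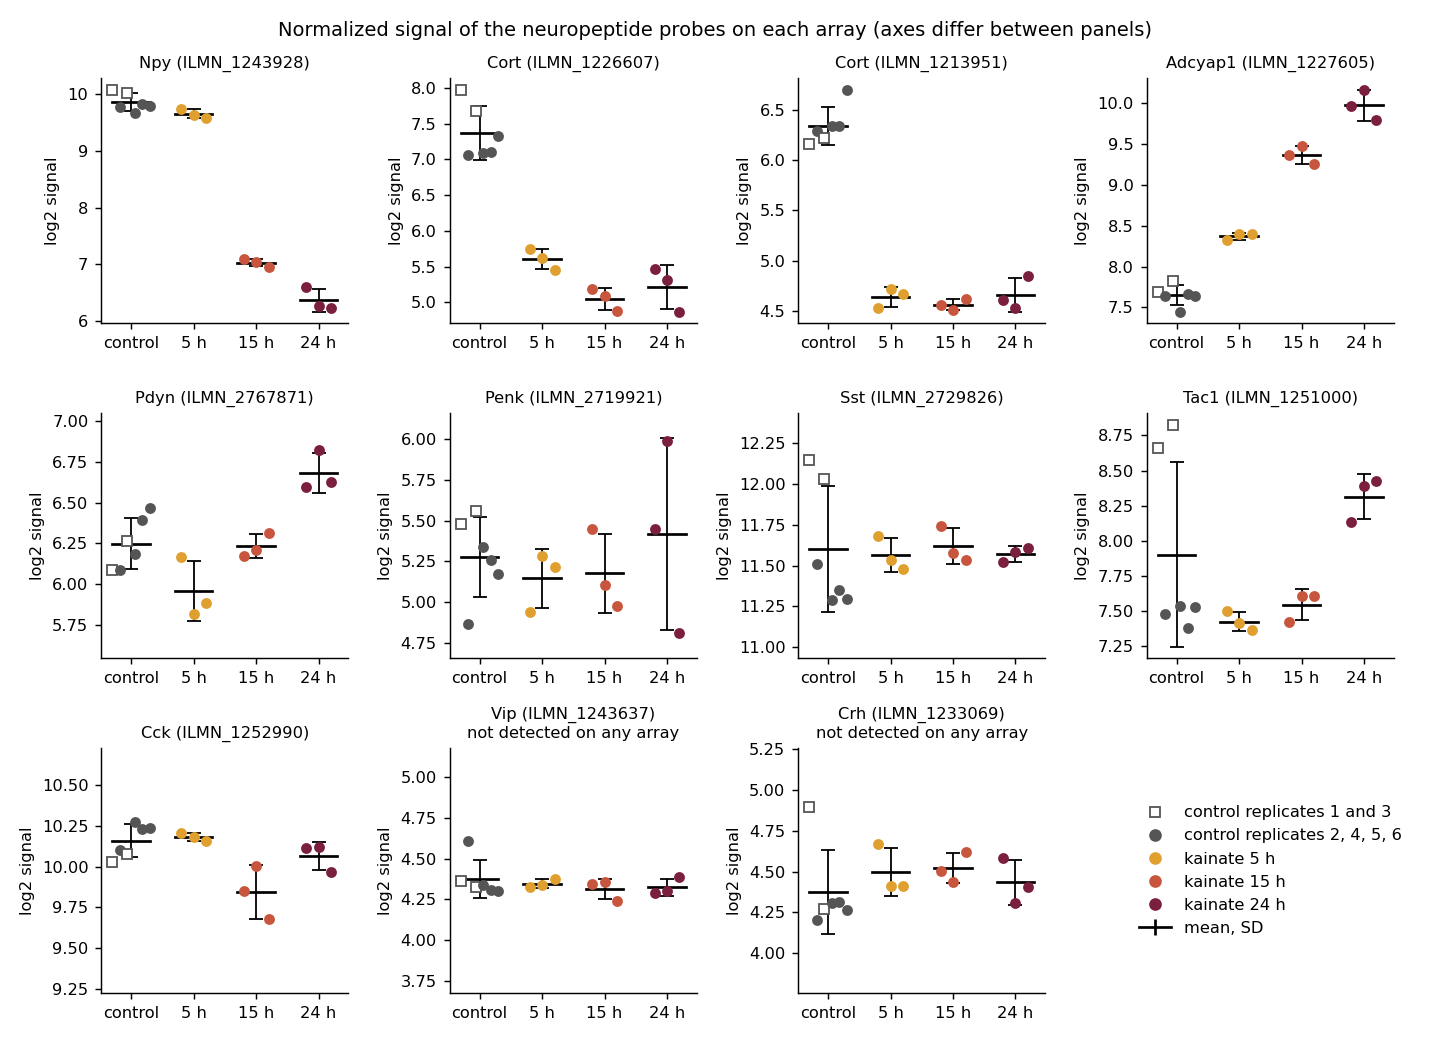
Normalized log2 signal of each of the 11 neuropeptide probes on every array (vertical axis, differing between panels) by group (horizontal axis), with points for arrays, bars for the group mean and whiskers for the SD over 6 control or 3 kainate arrays. Npy is low at 15 h and 24 h, Cort is low from 5 h on, Adcyap1 rises through all 3 times, and control replicates 1 and 3 (open squares) lie above the other controls for Sst and Tac1.

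Npy encodes neuropeptide Y, an inhibitory peptide of cortical interneurons, and showed the largest fall among the members, most of it after 5 h. Its gene lies on chromosome 6 (chr6:49822710-49829507, GRCm38.p6) and was measured by ILMN_1243928. Raw bead signals ran from 769.6 through a median of 1029 to 1281 intensity units in the controls. They were 947.8, 966.0 and 1018 at 5 h. They were 182.8, 137.7 and 184.9 at 15 h and 106.3, 93.4 and 89.8 at 24 h. In raw signal the 5 h arrays lay inside the control range, whereas every array at 15 h and 24 h lay far below it, and the 24 h arrays lay below all those at 15 h. After normalization 2 of the 3 arrays at 5 h lay below all 6 controls, and the log2 difference from control was -0.21 ± 0.11 at 5 h (limma adjusted p = 0.138), which did not pass. It did pass when a block was formed of the 5 h arrays plus control replicates 1 and 3 (-0.40, limma adjusted p = 0.0136). That block sets the 5 h arrays against these 2 controls only, the highest of the 6 for Npy, and so gives no separate evidence of a fall. With all 6 controls and no block, the difference was -2.83 ± 0.11 at 15 h, 7.12-fold lower (limma adjusted p = 1.62e-11). At 24 h it was -3.49 ± 0.11, 11.3-fold lower (adjusted p = 1.23e-12).

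The later fall of Npy held within each beadchip. Against the 2 controls of its own chip, the 5 h array was between -0.23 and -0.18, lower on 3 of 3 chips. The 15 h array was between -2.85 and -2.80 on the log2 scale, and the 24 h array between -3.58 and -3.32. From 5 h to 15 h Npy fell by 2.63 on the log2 scale (SE 0.12, limma adjusted p = 1.92e-09). From 15 h to 24 h it changed by a further -0.66 ± 0.12 (limma adjusted p = 0.0233), a step that no longer passed without 15 h replicate 1, 2 or 3 or without 24 h replicate 2, at adjusted p = 0.107, 0.114, 0.0834 and 0.109.

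Cort encodes cortistatin, a relative of somatostatin made by cortical interneurons, and it had already fallen at 5 h. The gene lies at chr4:149125034-149126763 and has 2 probes, whose levels cannot be set against each other. For ILMN_1226607 the raw control signals ran from 159.0 through a median of 179.0 to 306.9, the highest being control replicates 1 and 3. The kainate signals were 87.8, 91.3 and 87.8 at 5 h, then 74.5, 58.2 and 68.7 at 15 h and 64.6, 64.5 and 55.5 at 24 h, the last of these not above background. All 9 kainate arrays lay below all 6 controls. The log2 differences were -1.76 ± 0.19 at 5 h, -2.32 ± 0.19 at 15 h and -2.16 ± 0.19 at 24 h (limma adjusted p = 2.54e-06, 6.06e-08 and 1.56e-07), that is, 3.39-, 4.99- and 4.46-fold lower.

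The second Cort probe, ILMN_1213951, moved the same way. It was detected on 6 of 6 controls, at raw signals of 103.9 to 120.3, and on 0 of 9 kainate arrays, whose signals were 46.2 to 63.2. Because the kainate signals were not above background, the fold is a bound. For it, a kainate array whose Cort value lay under the dimmest detected probe was given that probe's value. Cort was on this probe at least 2.90-fold lower at 5 h, at least 3.09-fold lower at 15 h and at least 3.03-fold lower at 24 h (limma adjusted p = 1.12e-08, 3.74e-09 and 7.41e-09). The probes disagreed on the controls: replicates 1 and 3 were the highest of 6 on ILMN_1226607 and the lowest of 6 on ILMN_1213951 after normalization.

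Whether Cort fell further between 5 h and 15 h depended on the fit. ILMN_1226607 differed by -0.56 ± 0.22 (limma adjusted p = 0.0604), with no overlap of the groups, and passed under 9 of 32 alternatives. Over the 32 the value ran from -0.64 to 0.13. The 9 include the mean of both Cort probes (-0.32, limma adjusted p = 0.0436), which takes in ILMN_1213951. Others of the 9 were the beadchip as a fixed block (limma adjusted p = 0.0400), the fit without control replicates 1 and 3 (0.00705), array weights (0.00183) and the fits without control replicate 1 alone (0.0197) or 24 h replicate 3 (0.0488). Against the controls of its own chip ILMN_1226607 was between -1.77 and -1.75 at 5 h, between -2.34 and -2.28 at 15 h and between -2.35 and -2.05 at 24 h, so that the 15 h array was lower than the 5 h array on 3 of 3 chips. ILMN_1213951 differed between 5 h and 15 h by -0.07 ± 0.13 (limma adjusted p = 0.691), both groups being below background. Npy and Cort are thus apart in time: at 5 h Cort had passed and Npy, with all 6 controls and no block, had not, though the difference between the genes was not tested.

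Adcyap1, which encodes the peptide PACAP, was the member with the largest rise. The gene lies at chr17:93198245-93206541 and was measured by ILMN_1227605. Raw control signals ran from 193.2 through a median of 250.9 to 295.7. The kainate signals were 380.3, 435.0 and 469.7 at 5 h, 737.2, 599.6 and 759.5 at 15 h and 753.7, 867.8 and 716.0 at 24 h. Every kainate array lay above every control, and the raw signals of the 15 h and 24 h arrays overlapped. The log2 differences were 0.72 ± 0.10 at 5 h, 1.72 ± 0.10 at 15 h and 2.32 ± 0.10 at 24 h (limma adjusted p = 3.07e-05, 1.29e-09 and 5.25e-11), that is, 1.65-, 3.29- and 5.01-fold higher.

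Within chips the Adcyap1 rise on the log2 scale lay between 0.66 and 0.76 (5 h), between 1.60 and 1.85 (15 h) and between 2.14 and 2.53 (24 h), higher on 3 of 3 chips each time. It rose by 1.00 ± 0.11 from 5 h to 15 h (limma adjusted p = 8.25e-06). The step from 15 h to 24 h was 0.60 ± 0.11 (limma adjusted p = 0.0241) but did not pass when arrays were centred on their medians (0.32, adjusted p = 0.176). It also failed without 15 h replicate 1, 2 or 3 or 24 h replicate 1 or 2, at limma adjusted p = 0.0981, 0.0809, 0.126, 0.0726 and 0.119.

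**Figure D2:**
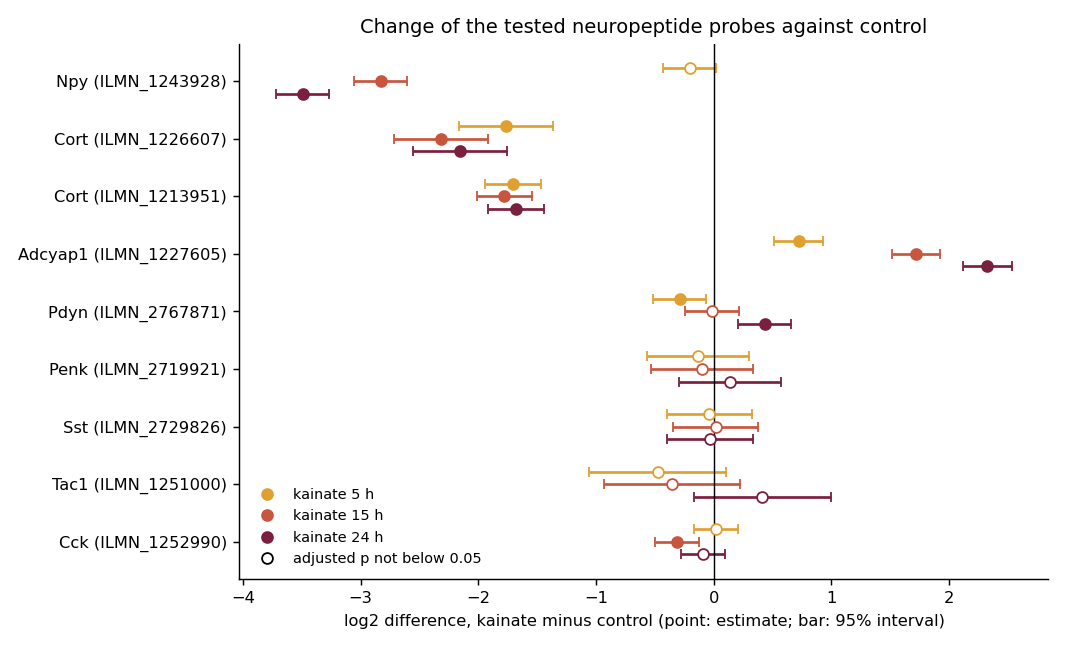
Log2 difference from control (horizontal axis) for the 9 tested neuropeptide probes (vertical axis) at 5 h, 15 h and 24 h. Bars are 95% intervals from the fit to all 15 arrays (6 control and 3 per kainate time), and points are open where the adjusted p was not below 0.05. Npy and both Cort probes lie to the left of 0, Adcyap1 to the right, and the intervals of Sst, Penk and Tac1 include 0 at every time.

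Pdyn and Penk encode the precursors of the opioid peptides dynorphin and enkephalin. Pdyn (ILMN_2767871, chr2:129686549-129699938) had raw signals of 100.3 to 120.1 with a median of 105.8 in the controls. They were 109.2, 99.8 and 107.6 at 5 h, 114.8, 91.3 and 132.1 at 15 h, and 105.7, 120.6 and 106.8 at 24 h. The raw ranges of all groups overlapped. After background correction and quantile normalization, the 24 h arrays lay above all controls, by 0.43 ± 0.11 on the log2 scale (1.35-fold, limma adjusted p = 0.00364). With median centring in place of quantile normalization the value was 0.24 (limma adjusted p = 0.0926) and did not pass.

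At 5 h Pdyn was lower by -0.29 ± 0.11 (limma adjusted p = 0.0411), although its normalized values overlapped the controls and it was higher than the controls of its own chip on 1 of 3 chips. That call was lost under 15 of 32 alternatives, among them those without control replicate 3, 5 or 6, without 5 h replicate 2 or 3 and without 15 h replicate 1 or 2, at adjusted p of 0.0507 to 0.194. At 15 h the difference was -0.02 ± 0.11 (limma adjusted p = 0.919). Pdyn at 24 h stood above its own level at 5 h by 0.72 ± 0.12 (limma adjusted p = 0.000329), a difference that passed under all 32 alternatives run. Its size depended on the fit, from 0.33 to 0.83 (highest limma adjusted p = 0.0163), and the raw signals at 5 h and 24 h overlapped.

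Penk (ILMN_2719921, chr4:4133536-4138815) was close to background, with raw signals of 54.5 to 87.0 over the 15 arrays and detection on 14 of them. Its log2 differences from control were -0.13, -0.10 and 0.14 (SE 0.20, limma adjusted p = 0.642, 0.718 and 0.621). The 95% interval at 24 h ran from -0.29 to 0.57, so that a change of that size could not be seen here.

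Sst encodes somatostatin, the inhibitory peptide of a large interneuron class, and it was bright on every array. For ILMN_2729826 (chr16:23889573-23891342) the raw controls ran from 2153 through a median of 3117 to 5382. The kainate signals were 3747, 3567 and 3822 at 5 h, 3564, 2365 and 3503 at 15 h and 2044, 2215 and 2359 at 24 h. Control replicates 1 and 3, at 5382 and 5262, lay above every other array, and the remaining 4 controls (2153 to 3435) lay below every 5 h array and overlapped the 15 h and 24 h groups. The log2 differences were -0.04, 0.02 and -0.03 (SE 0.17, limma adjusted p = 0.878, 0.953 and 0.898), with a 95% interval of -0.39 to 0.33 at 24 h.

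The Sst result depended on the controls and on the scaling. Without control replicates 1 and 3 the 15 h difference was 0.26 and passed (limma adjusted p = 0.0242). With median centring the 24 h difference was -0.53 and passed narrowly (limma adjusted p = 0.0464). In 5 arrays, control replicates 1 and 3 and the 5 h arrays, deposited detection scores were out of step for 1 very bright target. With these set as a block, Sst was lower at 5 h (-0.52, limma adjusted p = 0.00126). That block sets the 5 h arrays against control replicates 1 and 3 only, the highest controls for Sst. No direction for Sst can be given from these values.

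Tac1 encodes the precursor of substance P and neurokinin A. For ILMN_1251000 (chr6:7555061-7562978) the raw controls ran from 179.7 through a median of 227.2 to 577.5, and the kainate signals were 233.4, 241.0 and 246.2 at 5 h, 219.3, 186.1 and 267.1 at 15 h and 245.1, 287.4 and 287.5 at 24 h. Control replicates 1 and 3, at 492.0 and 577.5, again lay above every other array, and the other 4 controls reached 235.6. The log2 differences from control were -0.48, -0.36 and 0.41 (SE 0.27, limma adjusted p = 0.182, 0.312 and 0.244), none of which passed with all 15 arrays and no block. On the arrays numbered 1 to 3 alone, with the replicate number as a block, Tac1 was lower at 5 h (-0.90, limma adjusted p = 0.0185) and at 15 h (-0.78, limma adjusted p = 0.0276). It also passed on these arrays without the block (limma adjusted p = 0.0163 and 0.0256). These arrays keep control replicates 1 and 3, the highest controls for Tac1, and drop the controls numbered above 3. The calls therefore give no separate evidence of a fall. From 5 h to 24 h Tac1 rose by 0.89 ± 0.32 (limma adjusted p = 0.0380), with no overlap of the groups.

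That rise of Tac1 was not stable. It did not pass without any 1 of the 6 arrays at 5 h or 24 h (limma adjusted p = 0.0516 to 0.0990), nor with median centring (0.42, adjusted p = 0.321). Without control replicates 1 and 3 Tac1 at 24 h was above the controls by 0.83 (limma adjusted p = 4.11e-06), and without replicate 3 alone by 0.60 (adjusted p = 0.0386). With the block of control replicates 1 and 3 and the 5 h arrays, Tac1 was lower at 5 h by -1.32 (limma adjusted p = 4.66e-07). That block sets the 5 h arrays against control replicates 1 and 3 only, the highest controls for Tac1. It sets the 24 h arrays against the remaining controls, so its 24 h value, 0.83, repeats the difference without control replicates 1 and 3.

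Over all 14154 probes, the mean of control replicates 1 and 3 differed from that of the other 4 controls by a median of 0.01, with 5% of probes below -0.55 and 5% above 0.50 on the log2 scale. The same difference was 1.26 for Tac1, 0.73 for Sst, 0.68 for Cort on ILMN_1226607 and 0.28 for Npy. It was -0.23 for Cort on ILMN_1213951 and -0.16 for Cck. The summed signal of the 16 interneuron genes tested was 10264 and 9741 in these 2 controls and 9144 to 10276 in the other 4, and its part in the difference was not tested.

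Cck encodes cholecystokinin, which both interneurons and pyramidal cells of the cortex make. For ILMN_1252990 (chr9:121489824-121495694) the raw controls ran from 1046 through a median of 1317 to 1339. The kainate signals were 1313, 1410 and 1517 at 5 h, 1022, 846.2 and 1023 at 15 h and 827.9, 846.7 and 803.6 at 24 h. The 15 h and 24 h arrays lay below all controls in raw signal, while after normalization only the 15 h arrays did. The log2 differences were 0.02 ± 0.09 at 5 h, -0.31 ± 0.09 at 15 h and -0.09 ± 0.09 at 24 h (limma adjusted p = 0.871, 0.00849 and 0.432).

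The 15 h fall of Cck, 1.24-fold, did not pass without 15 h replicate 3 (-0.23, limma adjusted p = 0.0761), nor on the arrays numbered 1 to 3 alone, with the replicate block (-0.23, limma adjusted p = 0.0867) or without it (0.0960). It was lower on 3 of 3 chips, by between -0.56 and -0.17. At 24 h the call turned on the scaling: with median centring Cck was lower by -0.51 (limma adjusted p = 0.000195), and in the authors' ratios by -0.44 (adjusted p = 2.61e-05).

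Vip (ILMN_1243637, chr10:5639193-5647617) encodes vasoactive intestinal peptide, and Crh (ILMN_1233069, chr3:19693401-19695396) encodes corticotropin-releasing hormone. Raw Vip signals were 36.9 to 55.6 on the 15 arrays and the lowest detection p was 0.155. Raw Crh signals were 34.6 to 61.1 and the lowest detection p was 0.0639. Both were below detection in every group, so that no level, direction or change can be given.

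**Figure D3:**
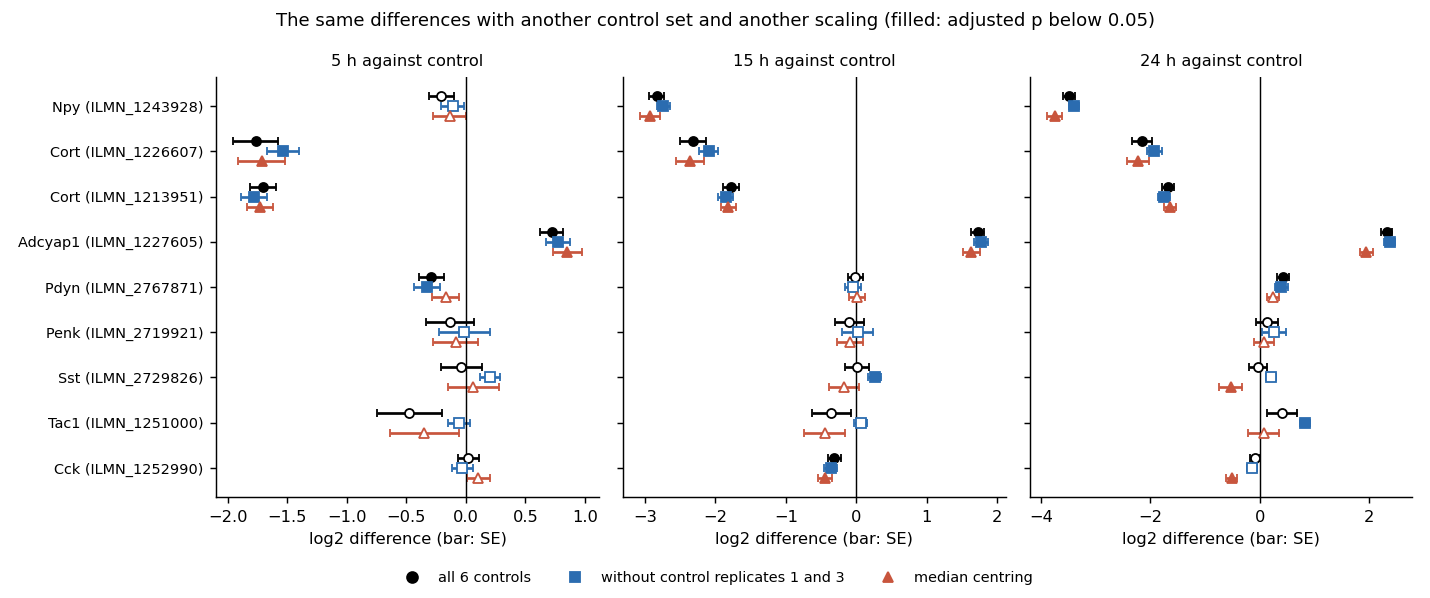
Log2 difference from control with its SE (horizontal axis) for the 9 tested neuropeptide probes (vertical axis) at 5 h, 15 h and 24 h, using all 6 controls (circles), the 4 controls without replicates 1 and 3 (squares) or median centring (triangles), filled where the adjusted p was below 0.05. Npy at 15 h and 24 h, Cort and Adcyap1 keep their side and call in all 3 settings, whereas Tac1 at 24 h is filled only without control replicates 1 and 3 and Cck at 24 h only with median centring.

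The probes most like each changed member over the 15 arrays were named by Pearson's r of normalized log2 signals, a description over arrays that share the 4 treatment groups. For Npy they were Dcn, Lor and Fbxl15 (r = 0.993, 0.989 and 0.989), of which Dcn encodes the matrix proteoglycan decorin. For Cort on ILMN_1226607 they were Rtn4r, Lrrc3b and Gpr21 (r = 0.975, 0.974 and 0.973), Rtn4r being the Nogo receptor gene. For Adcyap1 they were Svil, Rabggtb and Rgs16 (r = 0.984, 0.984 and 0.980), Rgs16 encoding a regulator of G-protein signalling. The closest to Cck was Crtc1 (r = 0.898), a CREB coactivator gene, before Pbx2 (0.895) and Sh2b2 (0.884), and the closest to Pdyn were Tssc4, Thumpd1 and Angel2 (0.898, 0.893 and 0.893).

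Genes that make, store and release neuropeptides moved in both directions. Of 21 genes listed for precursor processing and dense-core vesicles 13 were tested, and at 24 h 4 rose, 4 fell and 5 did not pass, with a median of 0.09 on the log2 scale. Among all 9824 genes tested, 22.7% rose and 22.3% fell at 24 h, with a median of -0.00175. Scg2, which encodes the vesicle protein secretogranin II, rose by 3.43 ± 0.40 (limma adjusted p = 3.47e-06), having already risen by 2.82 at 5 h. Syt4, the gene of a vesicle synaptotagmin, rose by 0.56 ± 0.09 (limma adjusted p = 0.000102), a call lost with median centring (adjusted p = 0.133). Cadps, which encodes the priming factor for dense-core vesicles, fell by 0.99 on the log2 scale (SE 0.09), and Chga, the gene of chromogranin A, by 0.75 (SE 0.10). With median centring the count at 24 h was 1 higher and 5 lower.

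Genes listed as receptors and binding proteins of the member peptides or of related peptides were also divided. Of 25 listed 15 were tested, and at 24 h 5 were higher, 5 lower and 5 did not pass (median 0.02). Sstr2, a somatostatin receptor gene, rose by 1.96 ± 0.15 (limma adjusted p = 3.21e-08), and Crhbp, which encodes a protein that binds corticotropin-releasing hormone, by 0.99 ± 0.19 (adjusted p = 0.000477). Oprl1, the gene of the nociceptin receptor, fell by 1.45 (SE 0.15), and Tacr3, the gene of the neurokinin 3 receptor, by 0.87 (SE 0.16). Neither nociceptin nor neurokinin B, the main ligand of the neurokinin 3 receptor, is the product of a member. At 5 h Sstr2 and Oprl1 had already moved, by 1.81 and -1.75, while, with all controls and no block, Crhbp (-0.39, limma adjusted p = 0.116) and Tacr3 (-0.01, adjusted p = 0.977) had not passed.

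Further receptor genes of the members are named after their values were seen. Adcyap1r1, the gene of the PACAP receptor, was higher at 24 h by 0.66 ± 0.19 (limma adjusted p = 0.00961), and its 5 h value was -0.41 ± 0.19 (adjusted p = 0.0973), or -0.53 and past the threshold without control replicate 1 (adjusted p = 0.0125). Npy1r, a neuropeptide Y receptor gene, fell at 5 h (-0.82 ± 0.13, limma adjusted p = 0.000113) and was higher at 24 h by 0.45 ± 0.13 (adjusted p = 0.00870), a late rise that 4 of 32 alternatives lost. Npy5r, another such gene, was detected on no kainate array and was at least 1.29-fold lower at 24 h (limma adjusted p = 0.000669). Cckbr, the cholecystokinin receptor gene of the brain, was lower by -1.46 ± 0.10 at 5 h and by -0.80 ± 0.10 at 24 h (limma adjusted p = 1.72e-08 and 6.86e-06). Oprk1, the kappa opioid receptor gene, was near background and at least 1.27-fold lower at 15 h (limma adjusted p = 0.0148). Its 24 h difference, -0.41 ± 0.14 (limma adjusted p = 0.0323), was lost under 12 of 32 alternatives. Tacr1, the neurokinin 1 receptor gene, was higher by 1.28 ± 0.17 at 5 h and 0.76 ± 0.17 at 24 h (limma adjusted p = 1.99e-05 and 0.00152).

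Of 47 other neuropeptide genes 16 were tested, and at 24 h 3 rose, 3 fell and 10 did not pass (median -0.07). Cartpt, which encodes the CART peptide precursor, rose by 3.25 ± 0.25 at 24 h (limma adjusted p = 4.84e-08), after 1.69 at 5 h and 3.38 at 15 h. Nppa, the gene of atrial natriuretic peptide, rose by 0.69 ± 0.12 (limma adjusted p = 0.000144). Nts, the neurotensin gene, fell by 2.00 on the log2 scale at 24 h (SE 0.09, limma adjusted p = 8.76e-11) and Grp, the gastrin-releasing peptide gene, by 1.38 (SE 0.16). Neither had passed at 5 h (0.16 and -0.03, limma adjusted p = 0.163 and 0.918), as Npy had not.

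**Figure D4:**
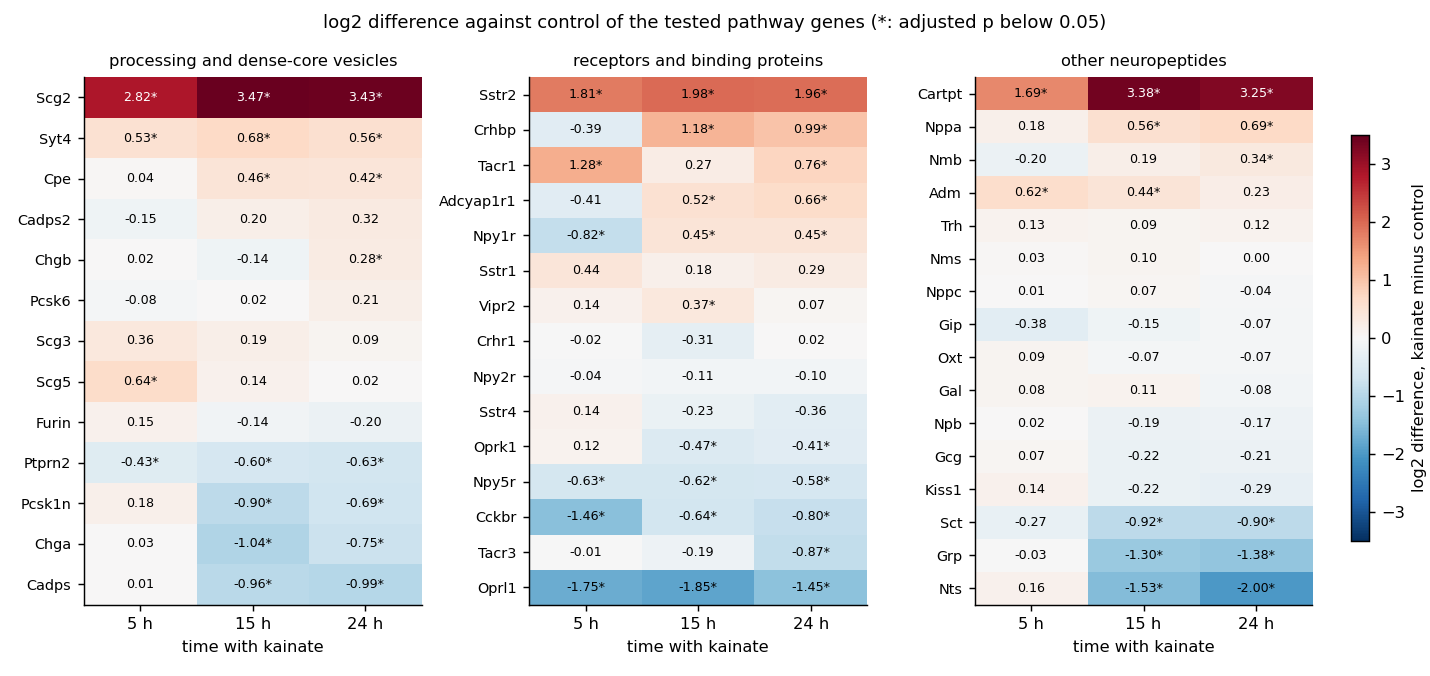
Log2 difference from control (colour and printed value, asterisk where the adjusted p was below 0.05) of the 13 tested processing and dense-core vesicle genes, the 15 receptor and binding protein genes and the 16 other neuropeptide genes at 5 h, 15 h and 24 h, ordered by the 24 h value. Scg2, Sstr2 and Cartpt lead the rises, and Cadps, Oprl1 and Nts the falls, at 24 h.

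Interneuron identity genes did not move as 1 group. Of 28 listed 16 were tested, and at 24 h 8 rose, 4 fell and 4 did not pass (median 0.21), beside 22.7% of all genes higher and 22.3% lower. With median centring 3 rose and 4 fell, a scaling under which 1510 of all 14154 probes were higher and 5234 lower, against 2989 and 3098 with quantile normalization. Slc32a1, the vesicular GABA transporter gene, fell by 1.48 (SE 0.09, limma adjusted p = 2.01e-09) and Gad1, which encodes a GABA-synthesising enzyme, by 1.03 (SE 0.14, adjusted p = 1.96e-05). Dlx1, the gene of an interneuron homeobox factor, rose by 0.84 ± 0.09 (limma adjusted p = 1.57e-06). Pvalb, the parvalbumin gene, was detected on 0 of 6 controls and was at least 1.78-fold higher at 24 h (limma adjusted p = 2.50e-06).

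The CREB and activity-linked factor list had 18 of 23 genes tested, of which 13 rose and 0 fell at 5 h, 12 rose and 1 fell at 15 h, and 13 rose and 0 fell at 24 h (12 and 1 at 24 h with median centring). Among all genes tested, 18.6% rose and 22.9% fell at 5 h, 23.2% rose and 24.5% fell at 15 h, and 22.7% rose and 22.3% fell at 24 h. Fos was higher by 5.08 ± 0.19 and Npas4, an activity-dependent factor gene, by 4.68 ± 0.09 at 24 h on the log2 scale.

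Markers of other cells moved with these results. In bulk RNA, fewer cells of a type and less RNA per cell cannot be told apart. The summed signal of the 9 pan-neuronal markers tested was 23812 to 30813 on control arrays. On kainate arrays it was 25032 to 27406 (5 h), 19066 to 20404 (15 h) and 16686 to 20490 (24 h). The 9 astrocyte markers summed to between 14650 and 15111 on control arrays. On kainate arrays the sums were 18964 to 19092 (5 h), 28029 to 29711 (15 h) and 22422 to 27886 (24 h), and 6 of them rose and 1 fell at 24 h. The 9 progenitor markers summed to 3614 to 4138 in the controls and 8234 to 9070 at 24 h. The 16 interneuron genes summed to 9144 to 10276 in the controls and 9598 to 9881 at 24 h, and the 11 excitatory neuron markers to 8141 to 10073 and 8710 to 10455. From control to 24 h the ranges were 186.1 to 216.0 and 215.8 to 297.1 for the 6 microglia markers tested, 9654 to 10888 and 11101 to 13320 for the 6 oligodendrocyte lineage markers, and 461.1 to 722.7 and 823.0 to 1483 for the 5 endothelial and mural markers. At 5 h the microglia sum (167.1 to 182.0) and the oligodendrocyte lineage sum (7190 to 7951) lay below every control. The endothelial and mural sum was then 653.0 to 734.1. For 6 genes, the microglia sum is close to background. Sums for the 6 fibroblast markers tested, which include Dcn, were 2692 to 3010 in the controls and 2429 to 2978 at 24 h. A sum follows the brightest genes of its list. By call at 24 h, 3 excitatory markers rose and 5 fell (median -0.27), and 4 fibroblast markers rose and 1 fell (median 0.55). Pan-neuronal markers had 0 rises and 4 falls, progenitor markers 5 and 0. Microglia and oligodendrocyte lineage markers each had 3 and 0, endothelial and mural markers 2 and 0. Among all genes tested, 22.7% rose and 22.3% fell. The part of cell make-up in the peptide results was not tested. Gad2 and Lhx6 among the interneuron genes, Rbfox3 among the neuronal markers and Aldh1l1 among the astrocyte markers were not tested.

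Arrays of a group correlated at r = 0.978 to 0.996 over all probes, with median signals of 53.4 to 70.4 intensity units and 49.5% to 55.2% of targets detected. Each member signal was the mean of 21 to 55 beads, and the number of arrays limits the precision. The scaling mattered late: with median centring the median over all probes at 24 h was -0.19 from control, against -0.01 with quantile normalization, and of the probes called 22.4% were higher, against 49.1%. Each kainate time was set against the same 6 controls, so that the 3 comparisons share the controls' spread.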

How the data were processed

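RNA from control and kainate-treated neurons was measured on 15 arrays of Illumina MouseRef-8 1.1 beadchips. The authors deposited bead intensities per target and array with no background correction or normalization, read with BeadStudio 3.2.3 per the submitters' processing notes. The deposited detection score is a fraction, 1 minus the detection p against the array's negative control beads, as checked against the file headers and values. The authors' deposited ratios divide each array by its median and each target by the controls' median, a rule the values followed to within 0.151%, and served as an alternative.

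Intensities were background-corrected and quantile-normalized on the log2 scale (neqc, offset 16). Of 24607 targets, 14154 with detection p below 0.05 on at least 3 arrays were tested with limma 3.58.1 (R 4.3.3) as 4 group means over 15 arrays, with two-sided moderated tests and Benjamini-Hochberg adjustment over all of them. The fit was tested on simulated data. Figures used matplotlib 3.10.9 (Python 3.11.15). After the data were seen, 1 target with a signal over 1000 but a detection p above 0 was left out. A further 72 columns, of 9 arrays of no sample listed here, were not used.

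Gene names came from the platform annotation and coordinates and promoters from RefSeq (GRCm38.p6). The sequence identifier deposited beside a target equalled the annotation's for 0.117% of the 20580 targets that had both. All names here rest on the platform annotation, and the reason for the mismatch was not tested. The members and gene lists were chosen with earlier results of these data known. Named were all members, the 3 probes most correlated with each changed member, and per list the 2 largest rises and 2 largest falls at 24 h, on the brightest probe of a gene. Chip, scaling, filter, offset, array weights and leaving out arrays were varied.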

Additional observations from a re-analysis of the deposited data

Results flagged for a closer look

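Among the 6 controls, 3 of 11 neuropeptide probes had 1 array far from the nearest of the others by Dixon's criterion, which flags about 1 in 20 groups by chance. For Cort on ILMN_1213951, control replicate 6 was highest at a normalized log2 signal of 6.70, the next control being at 6.34 and the gap 0.678 of the range. Vip on ILMN_1243637 was highest in control replicate 2 at 4.61, next 4.36, a gap of 0.796 of the range. Crh on ILMN_1233069 was highest in control replicate 1 at 4.89, next 4.31, a gap of 0.839 of the range. The Vip and Crh probes were detected on 0 of 15 arrays, so these values lie in the background.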

How the results depend on the processing

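Each of 54 probe differences (9 probes, 6 comparisons) was recomputed under 32 alternatives. Of the 23 that passed, 16 passed under every alternative and 0 reversed, counting direction only where a difference passed, and of the 31 that did not pass, 12 passed under none. The count from 5 h to 15 h, 3 probes, became 5 with the block of control replicates 1 and 3 and the 5 h arrays, 5 with array weights and 5 with the mean of a gene's probes. In that block the 5 h arrays are set against control replicates 1 and 3 only, and the 15 h and 24 h arrays against the remaining controls. The count from 15 h to 24 h, 2 probes, became 1 with median centring, 1 with the authors' ratios, 0 when only those 2 groups were fitted and 4 with array weights, and ran from 0 to 2 leaving out 1 array at a time. Over all probes that comparison gave 86 calls, but 391 with median centring, 505 with the authors' ratios, 140 without background correction, 144 with an offset of 50, 139 without the filter, 50 with the replicate block, 2 with only those 2 groups, 238 without control replicates 1 and 3, 295 with them and the 5 h arrays as a block, 1800 with array weights and 7 to 636 leaving out 1 array. From 5 h to 15 h array weights gave 7259 calls against 4672.

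Same-numbered arrays deviated from their group means with correlations of -0.11 to 0.30, so that the numbers were not taken as pairs. With the replicate number as a block (arrays 1 to 3 only), 5, 5 and 5 probes passed at 5 h, 15 h and 24 h and 1 from 15 h to 24 h. The same arrays without the block, a fit added after seeing the data, gave 4, 5, 5 and 2. With that block Npy at 5 h (-0.30, limma adjusted p = 0.0471) and Tac1 at 5 h and 15 h passed, and Cck at 15 h and Pdyn at 5 h did not. Apart from Npy, these calls were the same on those arrays without the block. Those arrays keep control replicates 1 and 3, the highest controls for Npy and Tac1. The Npy and Tac1 calls thus give no separate evidence of a fall. Among probes called, the share that was higher moved from 46.3% to 61.8% at 5 h, from 51.6% to 27.1% between 5 h and 15 h, from 34.9% to 2.81% between 15 h and 24 h and from 52.3% to 12.4% between 5 h and 24 h with median centring. Signals near background limit Penk, Vip, Crh and Cort after kainate. The causes of these shifts were not tested.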
